A study of Mus musculus with 24 samples.

Results

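The 6 glypicans (Gpc1 to Gpc6) and the 4 syndecans (Sdc1 to Sdc4) are the cell-surface core proteins that carry heparan sulfate, and they were followed here in dermal papilla (DP) cells of mice that lack Hdac1 and Hdac2 in the DP. All 10 genes were found once each, by symbol, among the 25755 genes of the deposited tables. They make up the 2 families, and the families were chosen by the values of Gpc5, which are lower at P28 than at P24 in control mice. That contrast is therefore described without a test for every member, and so is the difference of Gpc5 between the genotypes at P24 and at P28.

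The DP is a small mesenchymal cluster, enclosed by the lower end of the hair follicle, that signals to the overlying epithelium. RNA was taken from sorted DP cells of 3 control and 3 double mutant (dM1/2) mice at each of 4 ages, which gave 24 libraries in 8 groups. P20 lies in the telogen, or resting phase, of the first hair cycle, P24 and P28 in early and mid anagen, the growth phase, of the second cycle, and P60 in the telogen of the second cycle. In dM1/2 mice both alleles of Hdac1 and of Hdac2 are floxed and are deleted by Corin-Cre, a Cre line active in the DP, and cells were sorted by a YFP reporter from the skins of single mice. All control genotypes in the Methods carry the same Cre with at least 1 floxed allele of Hdac1 or Hdac2, some are homozygous for 1 of the 2 floxed genes, and the labels do not say which genotype each control library has. According to the Methods, P20 skins came from females and anagen skins from males, and both sexes were used for the second telogen.

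Heparan sulfate is a long sulfated sugar chain that binds many secreted signals, including Wnt, fibroblast growth factor, hedgehog and bone morphogenetic proteins, and can hold them at the cell surface or present them to their receptors. Glypicans are attached to the membrane by a lipid (GPI) anchor, whereas syndecans span the membrane and have a short cytoplasmic tail that binds adaptor proteins. These signals pass between the DP and the follicle epithelium during the hair cycle, so that the core proteins a DP cell makes are part of how such signals are received.

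The values are normalized reads, the reads on each gene after scaling by a size factor per library. Depth on genes ranged from 8171944 to 49331751 reads per library and was lower in all telogen libraries than in all anagen libraries. The female transcript Xist was at 8113 to 26333 normalized reads in the 12 libraries of P20 and P60 and at most 3.91 in the 12 of P24 and P28, while Y-linked Ddx3y was at 0 in the former and at 969 to 1738 in the latter, so that stage, sex and depth cannot be told apart. Hdac1 fell in dM1/2 at P24, where all controls lay between 668 and 675 and the mutants at 209, 188 and 116 (log2 fold change -2.01, adjusted p = 0.0017, limma). At P28 the controls were at 214, 529 and 105 and the mutants at 190, 149 and 126, so that the library labelled P28 control 3 held less Hdac1 than every mutant, and results at P28 are also given without it, after the members and after the heparan sulfate genes. At P20 Hdac1 was at 375, 511 and 505 in controls and at 216, 370 and 270 in mutants, and did not pass (adjusted p = 0.122, limma). At P60 the genotypes overlapped, at 506, 360 and 376 and at 371, 347 and 318 (adjusted p = 0.986, limma). Hdac2 did not pass the test at any age, and at P24 it was higher in every mutant than in every control, with means of 1221 and 1014. Of the 12 DP markers, all averaged above 10 normalized reads in every group, while the 8 keratinocyte markers together gave between 44.0 and 791 normalized reads in a library. Markers of other fibroblasts summed to 30380 to 144471 in telogen libraries, where the 12 DP markers summed to 16474 to 38808. The DP sum was the lower in every telogen library except P20 dM1/2 replicate 3, at 32712 against 30380. In anagen the DP sum was the higher in every library. These sums cover different genes, so they do not give the purity of the sorted cells.

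The families were chosen by the values of Gpc5. Among the 4 syndecans, Sdc1 rose at P24 and Sdc4 fell at P24 and P28 in dM1/2. The sequences around the transcription starts of these 3 genes are shown. They come from the RefSeq annotation of GRCm38.p6, run 5′ to 3′ on the strand of the gene and hold 250 bases before and 50 bases after the start, with capitals marking GGGCGG or its complement, the GC box.
Gpc5, chr14:115091965-115092264, plus strand: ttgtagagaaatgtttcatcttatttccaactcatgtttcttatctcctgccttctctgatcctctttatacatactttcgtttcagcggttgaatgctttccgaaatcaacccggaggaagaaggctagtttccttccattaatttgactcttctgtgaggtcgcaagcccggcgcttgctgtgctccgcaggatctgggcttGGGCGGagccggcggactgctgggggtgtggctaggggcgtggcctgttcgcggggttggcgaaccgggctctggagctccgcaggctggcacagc
Sdc1, chr12:8771146-8771445, plus strand: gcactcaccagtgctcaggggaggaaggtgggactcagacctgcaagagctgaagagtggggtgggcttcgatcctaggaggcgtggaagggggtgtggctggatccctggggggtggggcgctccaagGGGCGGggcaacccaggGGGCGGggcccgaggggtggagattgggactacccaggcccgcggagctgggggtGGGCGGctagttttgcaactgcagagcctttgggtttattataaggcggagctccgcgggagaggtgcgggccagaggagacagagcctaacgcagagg
Sdc4, chr2:164443139-164443438, minus strand: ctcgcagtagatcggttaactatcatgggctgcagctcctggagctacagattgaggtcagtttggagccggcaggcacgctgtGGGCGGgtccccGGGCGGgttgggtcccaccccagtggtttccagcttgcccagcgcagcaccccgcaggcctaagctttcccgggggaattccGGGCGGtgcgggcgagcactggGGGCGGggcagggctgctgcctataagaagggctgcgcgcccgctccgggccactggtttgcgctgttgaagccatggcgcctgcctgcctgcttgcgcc
A GC box was found on either strand in each of the 7 members with a promoter in the table, at 1 position in Gpc4 and Gpc5, at 3 in Gpc2, Sdc1 and Sdc3 and at 4 in Gpc3 and Sdc4, and 35.7% of all 32851 promoters of this length hold at least 1. CACGTG, the E-box palindrome, occurred in none of the 7 and in 7.15% of all promoters. CpG pairs numbered 17 in Gpc5, 14 in Sdc1 and 22 in Sdc4, against a median of 7 over all promoters and an upper quartile of 20. Promoters of Gpc1, Gpc6 and Sdc2 were not used here. On chromosome 14, Gpc6 begins 400 kb downstream of Gpc5, and Gpc4 and Gpc3 lie 107 kb apart on the X chromosome, both on the minus strand.

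Gpc5 was the member whose level varied most over the 8 groups. In the first telogen (P20), its control libraries were at 838, 525 and 803 normalized reads. They were at 101, 127 and 94.1 at P24 and at 8.26, 5.12 and 7.21 at P28, and P60 brought 86.1, 186 and 191. The gene was thus highest in the first telogen and close to the limit of detection in mid anagen, where the control libraries held 19, 8 and 19 reads. From P24 to P28 the controls differed by a log2 fold change of -3.79 (SE 0.31) without overlap, the difference by which it was chosen, in a contrast where 1.46% of all genes passed the test. The dM1/2 libraries held 1169, 1144 and 952 normalized reads at P20, 37.4, 4.95 and 30.4 at P24, and 4.26, 12 and 1.61 at P28. P60 mutants were at 12.6, 35.2 and 70.6. The order of ages was thus alike in both genotypes. The highest group mean, 1088 ± 118 (SD, n = 3) in dM1/2 at P20, was 183 times the lowest, 5.96 ± 5.4 in dM1/2 at P28, a wider range than the 9.70 times of Sdc4, the next most variable member. In the order of the means, the dM1/2 and control groups of P20 stood apart from each other and from all lower groups, while the P60 controls overlapped with the P24 controls, the P60 mutants with the P24 mutants, and the groups of P28 with each other and with the P24 mutants.

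The age dependence of Gpc5 was tested where the choice had not used it, between the 2 telogens. In controls, Gpc5 fell from 722 ± 172 normalized reads at P20 to 154 ± 59.3 at P60 (log2 fold change -2.28, SE 0.31, adjusted p = 0.0022, limma), and in dM1/2 from 1088 ± 118 to 39.5 ± 29.2 (log2 fold change -5.05, SE 0.53, adjusted p = 0.0056, limma). All 12 libraries of these ages held Xist and no Ddx3y, and depth was 11635062 to 13369732 reads at P20 and 8171944 to 9724000 at P60. Cell type markers moved with age too: in dM1/2 the 6 other-fibroblast markers summed to 30380 to 41368 at P20 and 72617 to 144471 at P60 and the 12 DP markers to 27460 to 38808 and 16474 to 25782. In controls the first list summed to 48199 to 76313 at P20 and 72070 to 88086 at P60, and the second to 22803 to 24870 and 20617 to 23789. Their part in the change of Gpc5 was not tested. The fall was larger in the mutants by 2.77 on the log2 scale (SE 0.68), but that difference did not pass the test (adjusted p = 0.215, limma, a contrast chosen after seeing the data), in which limma called 0 of 10 members and 0.0% of all genes, with 1756 of 14037 genes at an unadjusted p under 0.05. It did with DESeq2 (adjusted p = 0.0036), which called 169 genes, and without P60 dM1/2 replicate 3 (-3.34, adjusted p = 0.0459, limma). From P24 to P28 in dM1/2, Gpc5 was at means of 24.3 and 5.96, with overlapping libraries and an adjusted p of 0.343 (limma), a test in libraries that the choice had not used. It reached the minimum level there only through P24, on 103, 13 and 90 reads at P24 and 10, 28 and 4 at P28. With so few reads the test cannot decide whether its level changed. The 3 genes most like Gpc5 over log2 values of the 24 libraries, among 14243 genes, were Slc22a23 (Pearson r = 0.906), Arl4a (r = 0.898) and Hspb6 (r = 0.894). These correlations describe libraries that share age, sex and depth, and they include the P24 and P28 controls by which Gpc5 was chosen. Slc22a23, picked by this likeness, had means of 163 and 268 at P20 in controls and dM1/2 and of 11.9 and 11 at P28.

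**Figure D1:**
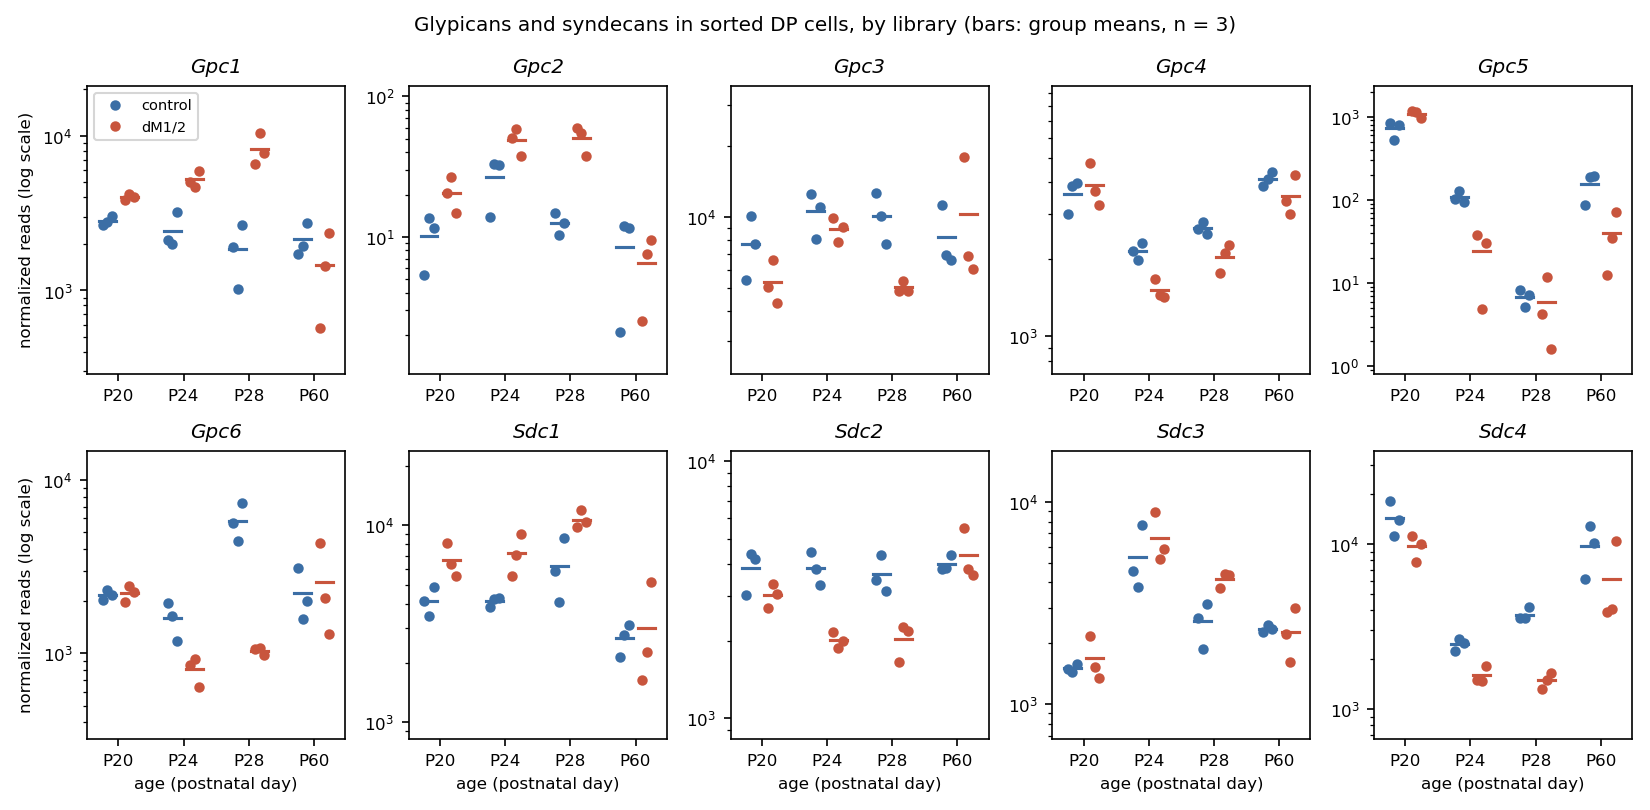
Normalized reads of the 10 members in each library, on log axes, by age, with controls in blue and dM1/2 in red and bars at the means of 3 libraries. Gpc5 runs from 525 to 1169 at P20 down to 1.61 to 12 at P28, Gpc1 and Gpc6 part in opposite directions at P28, and the points of the genotypes mix at P60 except for Gpc5.

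In anagen, the core proteins moved in both directions in dM1/2. At P24, 6 of the 9 members tested passed the threshold, Gpc1 and Sdc1 with a rise and Gpc4, Gpc6, Sdc2 and Sdc4 with a fall, where 26.6% of all genes tested passed (14.8% higher and 11.8% lower). At P28, 7 of 9 passed, with Gpc1, Gpc2 and Sdc3 higher and Gpc3, Gpc6, Sdc2 and Sdc4 lower, where 35.5% of all genes passed (20.0% higher and 15.6% lower). The median log2 fold change of the members tested was -0.23 at P24 and -0.38 at P28, beside -0.01 and 0.00 for all genes. The genotypes did not overlap in 7 of the 9 members tested at P24 and 9 of 9 at P28, beside 44.8% and 51.3% of all genes. In these bulk samples, fewer cells of a type and less RNA per cell cannot be told apart. Markers of cell types moved as well: the summed DP markers were at 255502 to 315425 in P24 controls and at 110839 to 149053 in P24 mutants, and at 117379 to 328072 and 75057 to 92181 at P28, and their part in the results was not tested.

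Gpc1, a widely expressed glypican, showed the largest rise among the members tested. At P28 the controls were at 1901, 1022 and 2647 normalized reads and the mutants at 6531, 10444 and 7769, so that the lowest mutant held over 2 times the highest control. The means of 1857 ± 814 and 8248 ± 2000 differed by a log2 fold change of 2.23 (SE 0.36, adjusted p = 0.0040, limma). At P24 the rise was 1.12 (SE 0.20, adjusted p = 0.0072, limma), from 2106, 1986 and 3205 to 5027, 4681 and 5912, again without overlap. Controls held Gpc1 at similar means at all ages, between 1857 and 2817, whereas the means of the mutants were 4005, 5207, 8248 and 1455 in the order of age. Gpc1 shares 977 exonic bases with Ankmy1 on the opposite strand, but Ankmy1 averaged 3.48 normalized reads.

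Gpc2, known mainly from the developing nervous system, rose at P28 from few reads. It shares 2376 of its 4274 exonic bases with Gm43720 on the same strand, which averaged 0.539 normalized reads. How reads on shared bases were counted is not given in the sources used here, so the level of Gpc2 is uncertain. There, 14.8, 10.2 and 12.5 normalized reads in controls stood against 59.3, 54.9 and 37.7 in dM1/2, which rest on 16 to 34 and on 94 to 139 reads. The log2 fold change was 1.92 (SE 0.33, adjusted p = 0.0050, limma). At P24 the difference of 0.94 (SE 0.40) did not pass (adjusted p = 0.124, limma), although the groups did not overlap.

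Among the members tested, Gpc6 had the largest fall between genotypes. In controls it peaked in mid anagen, at 5619, 4422 and 7369 normalized reads at P28, after 1963, 1640 and 1185 at P24, and the mutants were at 1054, 1079 and 982 at P28. Gpc6 thus fell by 2.45 on the log2 scale at P28 (SE 0.19, adjusted p = 4.0e-04, limma). At P24 the mutants, at 858, 925 and 641, were already lower (log2 fold change -0.97, SE 0.22, adjusted p = 0.0162, limma). From P24 to P28 in controls, Gpc6 was higher by 1.86 on the log2 scale (SE 0.26), without a test. In dM1/2 the change of Gpc6 over these 4 days was 0.38 (SE 0.15, unadjusted p = 0.034, adjusted p = 0.247, limma). It did not pass, but every P28 mutant lay above every P24 mutant, and groups were apart in 21.8% of all genes. The change in dM1/2 minus that in controls was -1.48 (SE 0.31), without a test.

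Gpc3 and Gpc4 lie side by side on the X chromosome. Gpc3, which is lost in an overgrowth syndrome in humans and binds hedgehog proteins, was at 12580, 8086 and 11121 normalized reads in controls and at 9944, 7848 and 9078 in mutants at P24, with overlap (log2 fold change -0.23, adjusted p = 0.444, limma). At P28 it fell from 12662, 10094 and 7722 to 4855, 5401 and 4885 (log2 fold change -0.98, SE 0.20, adjusted p = 0.0106, limma). It was also the 1 of 10 members called from P24 to P28 within dM1/2 (log2 fold change -0.82, SE 0.14, adjusted p = 0.0202, limma), where 2.67% of all genes were. The call was lost when P24 dM1/2 replicate 1 or P28 dM1/2 replicate 2 or 3 was left out (adjusted p from 0.0780 to 0.0896, limma). The other 9 lay between -1.78 and 0.64. Among them, Gpc1, Gpc4, Gpc6 and Sdc1 were higher and Sdc3 lower at P28 without overlap, beside 21.8% of all genes. In this contrast 6 of the 10 members had an unadjusted p under 0.05 (limma), as had 2357 of 14032 genes. DESeq2 also called Gpc1, Gpc4, Sdc1 and Sdc3, and 1127 genes in all. Gpc4 fell at P24, from 2152, 1985 and 2311 to 1672, 1444 and 1416 (log2 fold change -0.51, SE 0.12, adjusted p = 0.0191, limma), and at P28 the groups were again apart but the difference of -0.38 did not pass (adjusted p = 0.0688, limma). The call at P24 was lost without P24 control 1 or P24 dM1/2 replicate 2 or 3 (adjusted p from 0.0501 to 0.0657, limma), and DESeq2 called Gpc4 at P28 (adjusted p = 0.0351). Whether its change differed between P24 and P28 was not tested. Gpc5 was lower in dM1/2 at P24 by 2.48 on the log2 scale (SE 0.66), without overlap, and at P28 its means were 6.86 ± 1.60 in controls and 5.96 ± 5.4 in dM1/2, both described only.

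**Figure D2:**
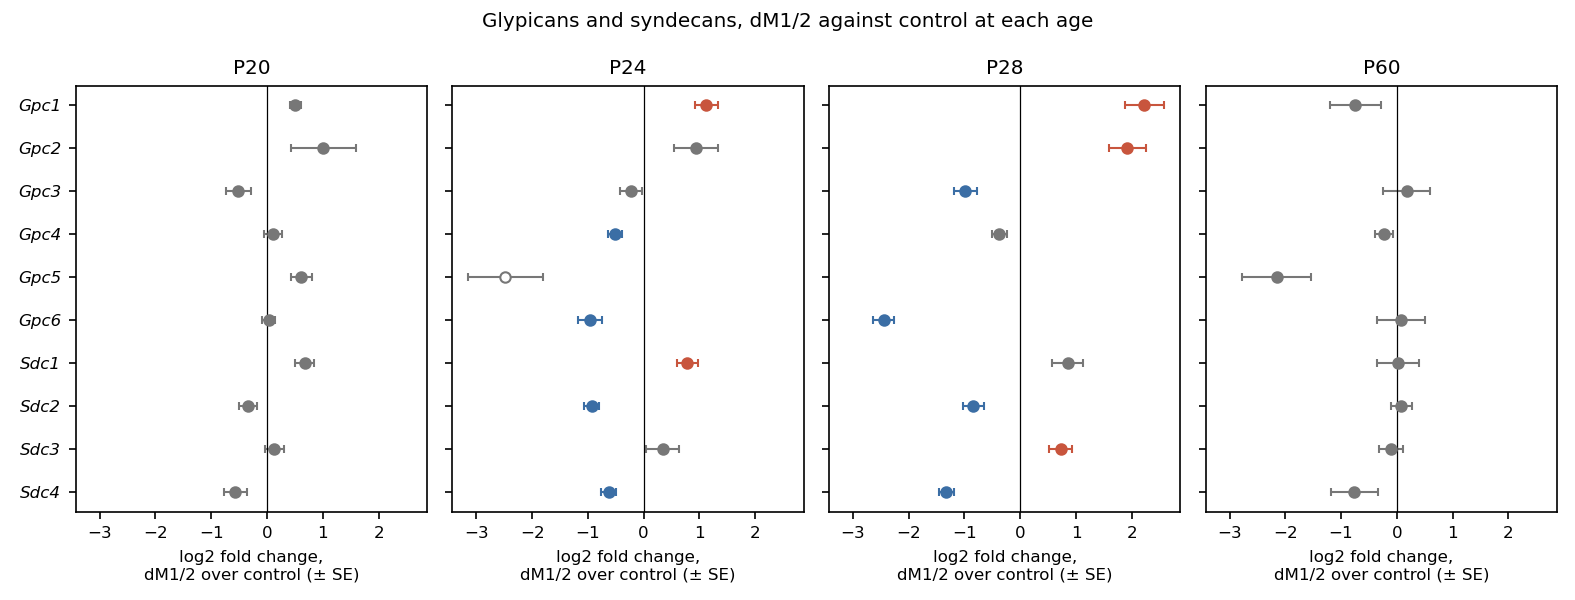
Log2 fold change of dM1/2 over control for each member at each age, with bars of 1 SE. Red points passed the test as higher, blue points as lower, grey points did not pass, the open point (Gpc5 at P24) was not tested, and Gpc5 at P28 and Gpc2 at P60 are missing because they lay under the minimum level.

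Among the syndecans, Sdc4 and Sdc2 fell at both anagen ages, while Sdc1 rose at P24 and Sdc3 at P28. Sdc4, a syndecan of focal adhesions, was at 3548, 3548 and 4130 normalized reads in P28 controls and at 1316, 1507 and 1657 in mutants (log2 fold change -1.33, SE 0.14, adjusted p = 8.4e-04, limma). At P24 the fall was 0.63 (SE 0.13, adjusted p = 0.0127, limma), from 2249, 2644 and 2505 to 1506, 1470 and 1829. In both genotypes Sdc4 was far higher in telogen, with control means of 14476 ± 3652 at P20 and 9744 ± 3442 at P60, and all 12 telogen libraries held more of it than all anagen controls except for P60 dM1/2 replicates 1 and 2, at 3893 and 4053, which were under the highest anagen control at 4130. Sdc2 was at 4419, 3815 and 3311 in P24 controls and at 2155, 1872 and 1997 in mutants (log2 fold change -0.93, SE 0.14, adjusted p = 0.0038, limma). At P28 the fall of Sdc2 was 0.84 (SE 0.18, adjusted p = 0.0124, limma), with 3447, 4329 and 3131 in controls and 1655, 2265 and 2178 in dM1/2.

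Sdc1, best known from epithelia and plasma cells, rose at P24 from 3841, 4211 and 4251 to 5522, 7015 and 9053 normalized reads (log2 fold change 0.78, SE 0.19, adjusted p = 0.0203, limma). At P28 the mutants, at 9755, 11899 and 10356, lay above the controls, at 5823, 4076 and 8613, but the difference of 0.85 did not pass (adjusted p = 0.0515, limma). Without the library labelled P28 control 3 it was 1.13 and passed (adjusted p = 0.0040, limma). The 8 keratinocyte markers summed to 63.1 to 456 normalized reads in P24 controls and 50.9 to 109 in P24 mutants, and to 44.0 to 220 and 85.7 to 146 at P28, and their part in the result of Sdc1 was not tested. Sdc3 rose at P28 from 2681, 1873 and 3146 to 3735, 4379 and 4342 (log2 fold change 0.72, SE 0.21, adjusted p = 0.0328, limma). At P24 Sdc3 overlapped between the genotypes (log2 fold change 0.34, adjusted p = 0.441, limma). The call at P28 was lost when any 1 mutant or P28 control 1 was left out (adjusted p from 0.0597 to 0.111, limma).

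The calls of P28 held without the library labelled P28 control 3, when 8 of 9 members passed, Sdc1 being added, beside 5788 of 14151 genes. The log2 fold changes were then 2.54 for Gpc1, 1.93 for Gpc2, -1.17 for Gpc3, -0.41 for Gpc4 (not called), -2.26 for Gpc6, 1.13 for Sdc1, -0.94 for Sdc2, 0.89 for Sdc3 and -1.25 for Sdc4. That library was also the lowest of its group in the 6 markers of other fibroblasts, at 4508 summed normalized reads against 31696 and 55551 in the other controls and 10252 to 17003 in the mutants. It was the highest in the 12 DP markers, at 328072 against 222346 and 117379 in the other controls and 75057 to 92181 in the mutants. The part of these cell types in the results was not tested. At P24 the count was 3 of 9 without P24 control 2, beside 2057 of 14045 genes, with Gpc6, Sdc1 and Sdc4 no longer past the threshold (adjusted p from 0.0568 to 0.0627, limma). These 3 calls were also lost without other single libraries, that of Gpc6 without P24 dM1/2 replicate 3, that of Sdc1 without P24 control 1 or P24 dM1/2 replicate 2, and that of Sdc4 without P24 dM1/2 replicate 1 (adjusted p from 0.0525 to 0.0594, limma).

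In telogen, none of the members passed the test. At P20, 0 of 10 were called with limma, where 0.433% of all genes were, and Gpc1, Gpc2, Gpc5 and Sdc1 were higher in every mutant than in every control, beside 25.4% of all genes without overlap in either direction. Gpc1 was at 2652, 2778 and 3020 in controls and at 3856, 4167 and 3991 in mutants (log2 fold change 0.51, SE 0.10, adjusted p = 0.0684, limma). Sdc1 was at 4122, 3463 and 4836 and at 8093, 6338 and 5534 (0.68, SE 0.17, adjusted p = 0.0952, limma). Gpc5 differed by 0.62 (SE 0.19, adjusted p = 0.124, limma). Before any adjustment, 4 of the 10 differences had a p under 0.05 (limma), as had 2735 of 13845 genes. Under its 2 scalings edgeR called 0 members, beside 78 and 80 of all genes. DESeq2 called 2 members, Gpc1 and Sdc1, beside 668 of all genes. The remaining log2 fold changes were 1.01 for Gpc2, -0.51 for Gpc3, 0.11 for Gpc4, 0.03 for Gpc6, -0.34 for Sdc2, 0.13 for Sdc3 and -0.57 for Sdc4. The result depended on the library P20 control 1: without it, Gpc1, Gpc3, Gpc5 and Sdc2 passed (adjusted p from 0.0282 to 0.0424, limma), with log2 fold changes of 0.47, -0.75, 0.74 and -0.50. In that fit 1530 of 13831 genes passed. The 6 markers of other fibroblasts summed to 48199 to 76313 in P20 controls and 30380 to 41368 in P20 mutants, and their part in these differences was not tested.

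At P60, 0 of 9 members were called with limma, edgeR or DESeq2, where limma called 0.0% of all genes. Of the 14042 genes, 525 had an unadjusted p under 0.05, and DESeq2 called 26. Gpc5 was the member with groups apart (8.87% of all genes were), at 86.1, 186 and 191 in controls and 12.6, 35.2 and 70.6 in mutants (log2 fold change -2.16, SE 0.61, unadjusted p = 0.0077, adjusted p = 0.986, limma). These values rest on 41, 78 and 83 reads and on 5, 14 and 30 reads. Of the other members tested, the log2 fold changes were -0.74 for Gpc1, 0.18 for Gpc3, -0.23 for Gpc4, 0.08 for Gpc6, 0.02 for Sdc1, 0.08 for Sdc2, -0.10 for Sdc3 and -0.76 for Sdc4. The mutant libraries of P60 spread widely: Gpc3 was at 18028, 6829 and 6032, Gpc1 at 576, 1446 and 2344 and Sdc4 at 3893, 4053 and 10418. P60 dM1/2 replicate 1, with the highest Gpc3 and the lowest Gpc1, also had the highest sum of other-fibroblast markers, 144471 against 72070 to 88086 in the controls, and the part of these cells was not tested.

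Whether the genotype effect differed between anagen and telogen was tested in 1 fit over the 24 libraries, as the mean effect at P24 and P28 minus the mean effect at P20 and P60. It did for 3 of 9 members, where it did for 30.2% of all genes. The effect was higher in anagen for Gpc1 by 1.79 (SE 0.37, adjusted p = 0.0012, limma), and lower for Gpc6 by 1.77 (SE 0.32, adjusted p = 3.8e-04, limma) and for Sdc2 by 0.76 (SE 0.18, adjusted p = 0.0034, limma). Sdc4, whose log2 fold changes were -0.57, -0.63, -1.33 and -0.76 at the 4 ages in order, had a difference of -0.31 that did not pass (SE 0.30, adjusted p = 0.471, limma). For Gpc2, Gpc3, Gpc4, Sdc1 and Sdc3 the adjusted p was between 0.0630 and 0.347, so that a difference between the stages was not shown for them. Over these libraries the 12 DP markers summed to 16474 to 38808 in telogen and 75057 to 328072 in anagen, and the other-fibroblast markers to 30380 to 144471 and 4508 to 55551, and their part was not tested.

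Between the 2 telogens, Gpc5 was not the only member to change in controls. Sdc3 rose from 1489, 1450 and 1577 to 2273, 2469 and 2356 normalized reads (log2 fold change 0.65, SE 0.12, adjusted p = 0.0081, limma), and Sdc1 fell from 4122, 3463 and 4836 to 2135, 2769 and 3108 (-0.64, SE 0.18, adjusted p = 0.0428, limma). These were 3 of 9 members tested, where 12.6% of all genes changed, and the call of Sdc1 was lost without any of 4 of the 6 libraries (adjusted p from 0.0555 to 0.181, limma). The other 6 members tested lay between -0.61 and 0.20. In dM1/2, 1 of 10 members changed, Gpc5, where 6.32% of all genes did, and the other 9 lay between -1.68 and 0.78. Gpc1 in dM1/2 went from a mean of 4005 ± 156 to 1455 ± 884 and Sdc1 from 6655 ± 1309 to 3016 ± 1865, without overlap (32.7% of all genes) and with adjusted p of 0.0613 and 0.0880 (limma). Without P60 dM1/2 replicate 3 both passed, as did Sdc4, and without replicate 1 Gpc1 did (adjusted p from 0.0078 to 0.0143, limma). Of all genes, 1415 of 14141 and 1772 of 14091 passed in these 2 fits. In controls from P24 to P28, described without a test, Sdc4 was higher by 0.60 and Gpc4 by 0.30 on the log2 scale and Sdc3 lower by 1.03, each without overlap, as in 26.6% of all genes. The libraries overlapped for Gpc1 (-0.46), Gpc2 (-0.94), Gpc3 (-0.07), Sdc1 (0.52) and Sdc2 (-0.09).

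Set against the length of their exons, the members contributed very unequally to the pool of core protein transcripts. Gpc3 was the leading glypican per kilobase in every group, with mean shares of the glypican sum from 40.8% to 71.2%, whereas Gpc2 stayed under 0.3%. The share of Gpc2 is uncertain, since part of its exonic bases is shared with another gene. The share of Gpc1 was 6.05% ± 3.01 (SD, n = 3) in P28 controls and 35.8% ± 4.11 in P28 mutants, and that of Gpc6 15.2% ± 4.96 and 3.69% ± 0.445. At P24 the share of Gpc1 was 8.63% ± 2.04 and 20.0% ± 2.15. Summed over the family, glypicans were at 6043 ± 791 normalized reads per kilobase in P28 controls and at 4423 ± 556 in mutants.

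Sdc4 made up 69.4% ± 6.44 of the syndecan sum per kilobase in P20 controls and 62.0% ± 7.63 in P60 controls, but 24.1% ± 2.42 in P24 controls. In P28 mutants Sdc1 led with 60.2% ± 2.13, against 34.9% ± 7.99 in P28 controls, and Sdc4 was at 12.6% ± 1.11 against 32.5% ± 2.12. The syndecan sum itself was 4548 ± 669 normalized reads per kilobase in P28 controls and 4657 ± 462 in mutants, with overlapping libraries. At P28 the shares of Sdc1 and of Sdc4 did not overlap between the genotypes.

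**Figure D3:**
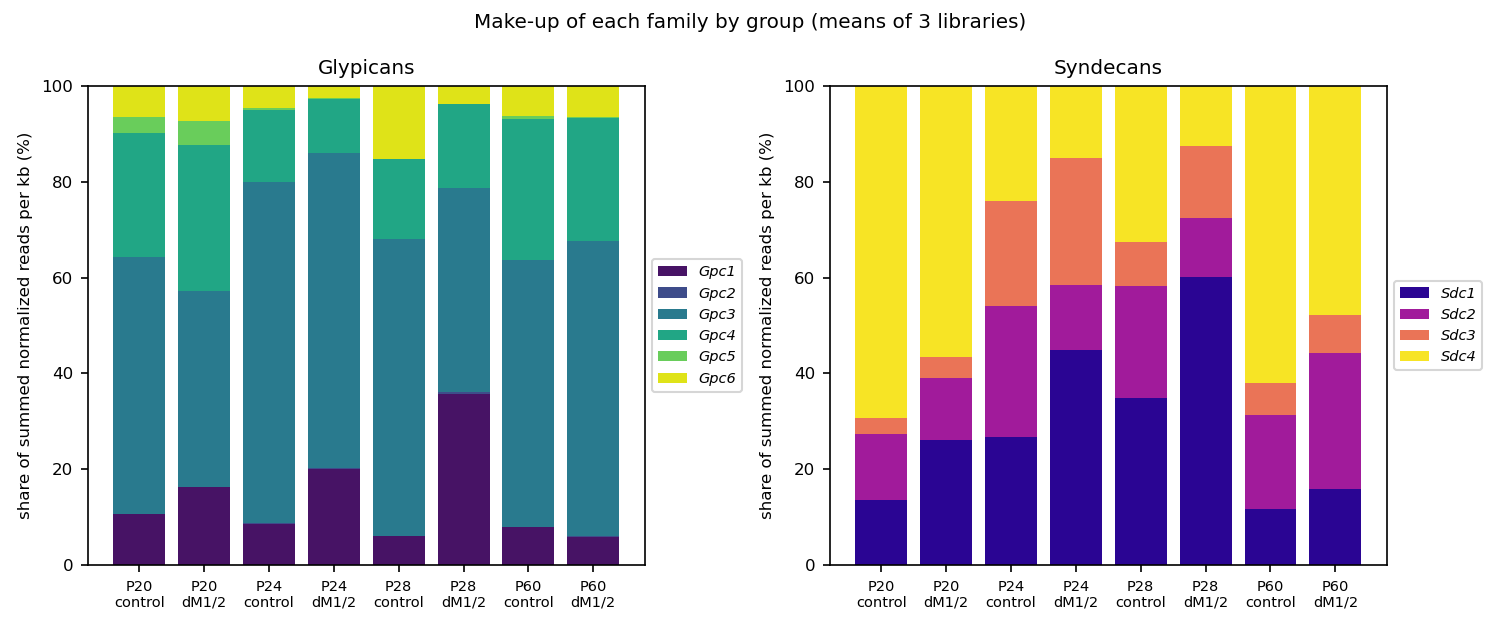
Share of each gene in the summed normalized reads per kilobase of its family (%), as means of 3 libraries in each of the 8 groups. Sdc4 fills most of the syndecan bar in telogen controls, Sdc1 60.2% of it in dM1/2 at P28, and Gpc1 35.8% of the glypican bar in the same group.

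The genes that build, sulfate and release heparan sulfate were read as 45 genes in 7 lists. At P24, 5 of the 43 tested rose and 8 fell, and at P28 6 rose and 13 fell, beside the shares of all genes given above. Without P24 control 2, 5 were called at P24 in place of 13, beside 2057 of 14045 genes. At P20, 1 of 40 rose (Agrn), where 0.433% of all genes were called. Of the 40, 11 had an unadjusted p under 0.05 at P20, beside 2735 of 13845 genes. At P60, limma called 0 of 40, and 3 of these genes had an unadjusted p under 0.05, beside 525 of 14042 genes. Among the 45 genes, tested or not, every mutant was higher in 4 and lower in 9 at P20. At P60 every mutant was higher in 7 and lower in 3. Groups were apart in 25.4% and 8.87% of all genes tested at these ages. The median log2 fold change was -0.17 at P24 and -0.40 at P28. Of the 6 genes for the sugar linker on the core protein, none passed at P24 or P28 with limma (0 and 2 at an unadjusted p under 0.05), and of the 5 genes for chain elongation, Ext1 and Extl3 fell and Extl1 rose at both.

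Ext1, a subunit of the polymerase that elongates the chain, was at 2665, 2837 and 2158 normalized reads in P24 controls and 1371, 1536 and 1473 in mutants (log2 fold change -0.80, SE 0.13, adjusted p = 0.0058, limma), and at P28 it was lower by 0.71 (adjusted p = 0.0051, limma). The related Extl1 rose from 63.5, 77.8 and 105 to 180, 273 and 237 at P24 and, by 2.16 (SE 0.17, adjusted p = 4.1e-04, limma), from 58.3, 66.0 and 73.2 to 278, 323 and 293 at P28. At P20 neither was called, but Ext1 was lower in every mutant (1689 to 1910) than in every control (1928 to 2559). Extl1 was higher there, at 102 to 143 against 29.8 to 58.9 in controls. Both overlapped between the genotypes at P60.

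Among the sulfotransferases that place the rare 3-O-sulfate, those named by the rule of the largest called changes moved in opposite directions. Of the 14 genes tested in the whole list of heparan sulfate modification, 9 were not called at P24 and 7 at P28. Hs3st1, which makes the binding site for antithrombin, was at 1432, 1968 and 1491 in P24 controls and 359, 320 and 284 in mutants (log2 fold change -2.33, SE 0.16, adjusted p = 5.6e-04, limma). At P28 it fell from 678, 293 and 551 to 85.7, 93.8 and 93.5 (-2.38, SE 0.31, adjusted p = 0.0018, limma). Hs3st6 was at 20.9, 34.6 and 11.8 in P28 controls and at 319, 424 and 576 in mutants, a rise of 4.32 (SE 0.41, adjusted p = 6.9e-04, limma), after a rise of 1.13 at P24 (adjusted p = 0.0346, limma). At P20 Hs3st6 was at 187 to 264 in controls and 334 to 668 in mutants but was not called. At P60 its genotypes overlapped. Hs3st5 was at 0, 1.92 and 0.379 in P28 controls, which is at most 3 reads a library, and at 89.1, 84.8 and 53.4 in mutants, and its fitted change of 5.56 depends on the pseudocount of 1. It reached the minimum level at P28 only through the mutants, so it is described by its values, although the count of rises at P28 includes it. Its means in controls and dM1/2 were 7.35 and 6.65 at P20, 7.66 and 19.0 at P24 and 9.30 and 9.97 at P60. Ndst3, an enzyme of N-sulfation, fell at P28 by 1.58 (SE 0.27, adjusted p = 0.0051, limma).

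Of the 5 genes for the release of core proteins, 2 fell at P24 and 3 at P28, where 11.8% and 15.6% of all genes fell. Furin, a protease that activates many secreted and membrane proteins, was at 7967, 6044 and 10789 in P28 controls and 2885, 2868 and 3355 in mutants (log2 fold change -1.41, SE 0.22, adjusted p = 0.0038, limma), and it fell by 0.75 at P24 (adjusted p = 0.0123, limma). Gpld1, a phospholipase that cuts GPI anchors such as those of glypicans, fell by 1.44 at P28 (SE 0.24, adjusted p = 0.0049, limma), but it shares 2466 exonic bases with Mrs2 on the opposite strand and its value is uncertain, since the strand setting of the counting is not given in the sources used here. Of the other core proteins, Agrn (agrin) rose at 3 ages, from means of 3596 to 6701 at P20, 4945 to 13671 at P24 and 6358 to 16786 at P28 (log2 fold changes 0.90, 1.46 and 1.45, adjusted p = 0.0310, 0.0014 and 0.0071, limma). At P60 Agrn was not called, but every mutant, at 4340 to 7450, again lay above every control, at 3071 to 3831. Tgfbr3 (betaglycan), a co-receptor of transforming growth factor beta, fell by 0.73 at P24 and by 1.34 at P28 (adjusted p = 0.0272 and 0.0298, limma). In telogen it was not called. At P20 every mutant, at 9449 to 11135, lay below every control, at 13021 to 14430. At P60 every mutant, at 21329 to 24819, lay above every control, at 16561 to 20651. Tiam1, which activates Rac and binds syndecan tails, rose by 1.05 and 1.31 (adjusted p = 0.0263 and 0.0019, limma). Without the library labelled P28 control 3, 20 of the heparan sulfate genes were called at P28, beside 5788 of 14151 genes. Those named here for P28 kept their direction and call, with log2 fold changes such as -2.28 for Hs3st1, 3.94 for Hs3st6, 2.24 for Extl1, -1.20 for Furin and -1.71 for Tgfbr3.

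**Figure D4:**
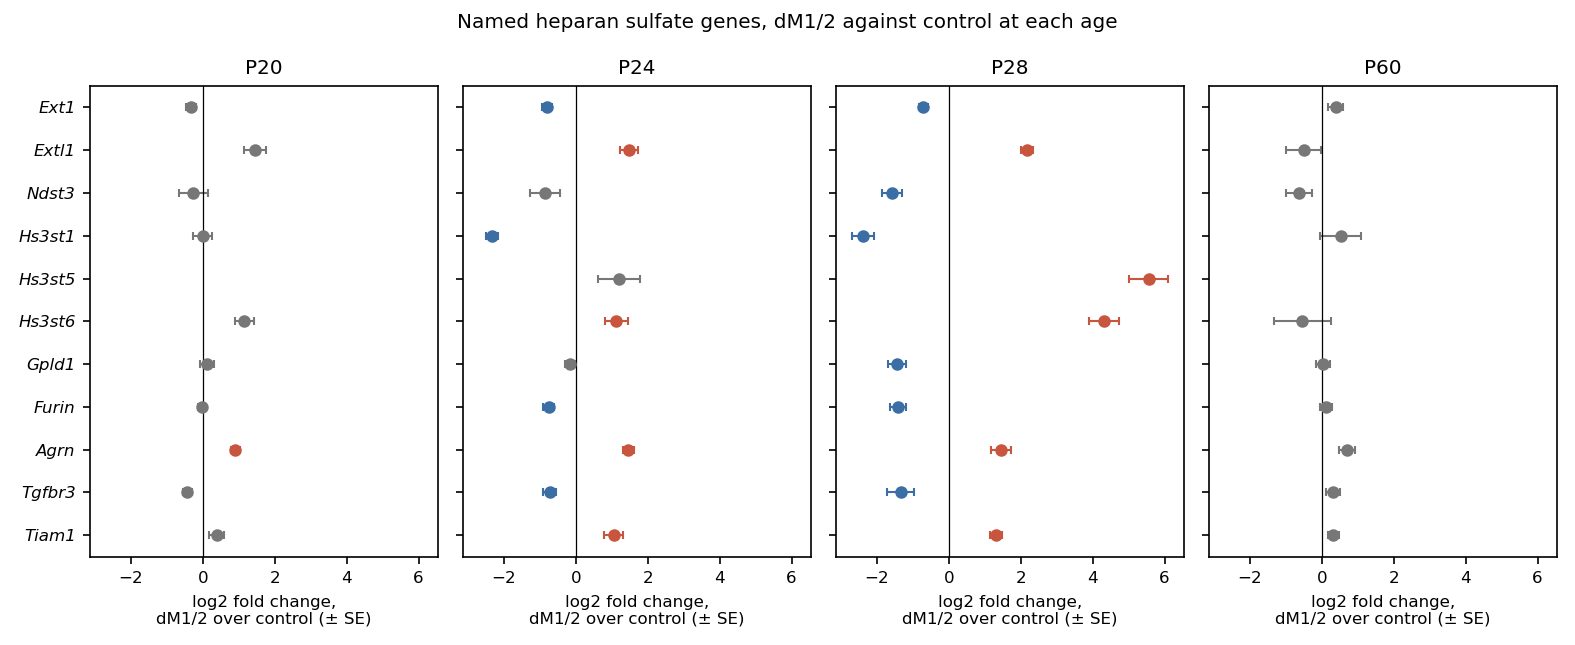
Log2 fold change of dM1/2 over control, with bars of 1 SE, for 11 genes of heparan sulfate synthesis, modification, release and signaling at the 4 ages. Red and blue points passed the test as higher and lower and grey points did not, and the coloured points lie at P24 and P28 except for Agrn, which is also red at P20. Hs3st5 at P28 reached the minimum level only through the mutants.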

How the data were processed

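DP cells were sorted by YFP, and ribosome-depleted RNA was sequenced in 24 libraries, 3 in each of 8 groups. The deposited tables hold a signal per gene: the authors aligned reads with TopHat2, counted them with HTSeq on Ensembl GRCm38.p4 genes and scaled all libraries together with DESeq2 size factors. Whole reads were recovered for 100% of values within 0.01. The groups came from the sample labels, and p-values measure the spread between mice, 1 library each.

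Log2(normalized reads + 1) was tested with limma 3.58.1 in R 4.3.3 (trend, two-sided), for genes with a mean of at least 10 over the libraries of each fit, at a Benjamini-Hochberg adjusted p under 0.05 over all genes tested. Alternatives were a pseudocount of 10, no filter, TMM scaling, edgeR 4.0.16 and DESeq2 1.42.0 on the whole reads, a replicate block, 1 fit of all libraries, and each library left out. The scripts were tested on simulated data. Depth ranged from 8171944 to 49331751 reads on genes, and 3 reads were taken as the floor of detection. Lengths are the summed exons of the GENCODE annotation of GRCm38.

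The members and lists were chosen with earlier results of these data known. The rule for named genes covered the 10 members in every comparison, given singly or by range and count, Hdac1 and Hdac2 as the check of the labels, and of the heparan sulfate lists the 4 largest rises and 4 largest falls at P24 and at P28 among called genes without overlap between genotypes, while the members of lists with small counts were named after their values were seen. Replicate numbers were not taken to pair mice.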

Additional observations from a re-analysis of the deposited data

Results flagged for a closer look

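For 3 of the 9 members tested, dM1/2 differed from controls to another extent in anagen than in telogen, as it did for 30.2% of all genes, by the test of the difference itself in 1 limma fit over all libraries. For Gpc1 the effect in anagen was higher than in telogen by 1.79 on the log2 scale (adjusted p = 0.0012, limma), with log2 fold changes of 0.51, 1.12, 2.23 and -0.74 from the youngest to the oldest age. For Gpc6 the difference was -1.77 (adjusted p = 3.8e-04, limma), with 0.03, -0.97, -2.45 and 0.08 at the same ages. For Sdc2 it was -0.76 (adjusted p = 0.0034, limma), with -0.34, -0.93, -0.84 and 0.08. Stage coincided with sex and depth in these libraries, and these cannot be told apart. The DP markers summed to 16474 to 38808 normalized reads in telogen and 75057 to 328072 in anagen, and their part was not tested.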

How the results depend on the processing

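The number of members called varied with the test and with single libraries. At P20 (0 in the report) DESeq2 and the replicate block gave 2 each, and leaving out 1 library 0 to 4. The counts were 3 to 6 at P24, 6 to 8 at P28 and 0 to 0 at P60 when 1 library was left out. From P24 to P28 in dM1/2 (1 reported) DESeq2 gave 5, the single fit of all libraries 0 and leaving out a library 0 to 1. From P20 to P60 the controls (3) gave 1 in the single fit and 2 to 4 without a library, and dM1/2 (1) gave 3 with DESeq2, 2 with the block, 4 in the single fit and 1 to 4 without a library. The difference between these changes (0) gave 1 with DESeq2 and 0 to 1 without a library, and the difference between anagen and telogen (3) gave 3 to 4. Heparan sulfate genes called at P24 (13) fell to 8 with the block and ranged from 5 to 17 without a library, and those at P28 (19) from 14 to 21. With a pseudocount of 10, the description of Gpc5 from P24 to P28 in controls was -2.79 in place of -3.79.

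Signs turned for values near 0. Sdc1 at P60 was -0.0070 with TMM scaling, and Gpc6 from P20 to P60 in controls was 0.024 and 0.022 with edgeR under TMM and DESeq2 scaling and 0.022 with DESeq2. Leaving out 1 library, the log2 fold changes at P20 ran from -0.044 to 0.23 for Gpc4, from -0.039 to 0.11 for Gpc6 and from -0.069 to 0.28 for Sdc3. At P60 they ran from -0.32 to 0.47 for Gpc3, -0.38 to 0.49 for Gpc6, -0.45 to 0.37 for Sdc1, -0.11 to 0.19 for Sdc2 and -0.32 to 0.12 for Sdc3. From P24 to P28 in dM1/2 they ran from -0.14 to 0.23 for Gpc2 and -0.079 to 0.15 for Sdc2. From P20 to P60 they ran in controls from -0.15 to 0.31 for Gpc3, -0.29 to 0.20 for Gpc6 and -0.095 to 0.17 for Sdc2, and in dM1/2 from -0.28 to 0.012 for Gpc4 and -0.43 to 0.44 for Gpc6. In the difference between these changes they ran from -0.41 to 0.46 for Gpc6 and -0.66 to 0.048 for Sdc4. The cause was not tested in any of these. Of the values of single genes, 806 kept their direction and call under the other settings, 20 gained and 8 lost a call. When 1 library was left out, 865 kept both, 16 gained and 21 lost a call, and 33 changed sign.

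Over all genes, the calls at P20 were 60, against 668 with DESeq2, 439 with the block, 21 in the single fit and 0 to 1530 without a library. At P24 3735 became 2366 with the block and 2057 to 4012 without a library, and at P28 5018 became 3043 to 5788. From P24 to P28 in dM1/2, 375 became 1127 with DESeq2, 96 in the single fit and 57 to 446. From P20 to P60 the controls went from 1746 to 923 with the block and 527 to 2796, and dM1/2 from 892 to 1837 with DESeq2, 2177 in the single fit and 100 to 1772. Same-numbered libraries did not deviate together in every comparison: at P20 their correlations were 0.231, 0.0822 and 0.116, each highest with its own number, and at P24 -0.179, 0.0425 and -0.401. With the block, 5 members were called at P24, 6 at P28 and 2 from P20 to P60 in controls, beside the counts at P20 and from P20 to P60 in dM1/2 above. At P20 the block called Gpc1 and Sdc4 (adjusted p = 0.0429 and 0.0480, limma), and it lost Gpc4 at P24 (0.0657) and Sdc3 at P28 (0.0600). Gpc5 at P28, with 4 to 28 reads a library, and Gpc2 at P60, with 1 to 5, lay under the minimum level. A difference between the genotypes was not tested for them.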
